A study of Homo sapiens with 8 samples.

Results

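The DEAD box (DDX) and DEAH box (DHX) genes encode the main groups of ATP-driven RNA helicases of human cells. Members were taken as every gene with a coding transcript whose symbol was DDX or DHX followed by a number, with or without a letter after it in the case of DDX. This gave 56 symbols, 40 DDX and 16 DHX, among 19964 genes with a coding transcript. A gene was kept where its mean count over the libraries of each assay was at least 10. 49 members passed, 34 DDX and 15 DHX, among 10273 genes that passed in both assays. The 7 that did not pass were DDX3Y, DDX4, DDX25, DDX43, DDX53, DDX60L and DHX58.

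HEK293T cells, a human embryonic kidney line that carries the SV40 large T antigen, were given vehicle (control) or 40 µM sodium arsenite for 30 min. Each condition was profiled by ribo-seq, which sequences the mRNA fragments protected by ribosomes (footprints), and by mRNA-seq, in 2 replicates. The design gives 8 libraries and asks which mRNAs gain or lose ribosomes when arsenite, an oxidative stressor that leads to phosphorylation of the initiation factor eIF2, acts on the cells. Here the question was put to the helicases: how well each was translated in control cells, how its RNA and footprints differed after arsenite, and how DDX genes compared with DHX genes.

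RNA helicases use ATP to separate RNA strands or to strip proteins from RNA. DEAD box proteins open short duplexes locally and then let go, and the translation initiation factor eIF4A is their best known relative, whereas DEAH box proteins move along a strand and pull it out of larger assemblies, most famously at the successive steps of splicing. Between them they act from transcription and splicing through ribosome assembly and mRNA export to translation and mRNA decay, and several of them gather in the granules that form when initiation is blocked.

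Reads on the chosen transcripts (1 per gene) numbered 1023935 to 7270196 in the ribo-seq libraries and 3993293 to 21724945 in the mRNA-seq libraries. In each assay the second replicate was the deeper, so its values carry less counting error. The line's markers VIM, KRT8, KRT18 and NEFM all had reads in every library. The hepatocyte gene ALB and the leukocyte gene PTPRC had no footprint in any library, and at most 15 mRNA-seq reads.

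Read numbers differed widely among members. In control cells DDX17 had 4093 mRNA-seq reads in replicate 1 and 27257 in replicate 2, DDX5 had 3260 and 19990, and DDX21 had 3485 and 15390, the most of any members. Summed over both control libraries, DDX5 also had the most footprints over its coding sequence (CDS), 3535 and 10679, followed by DHX9 with 2305 and 8886 and DDX17 with 1494 and 7555. In replicate 1 alone DDX21, with 2769, was ahead of DHX9. These are read numbers that grow with transcript length and are no ranking of levels. DDX5 and its paralog DDX17 are coregulators of transcription and splicing, DHX9 unwinds long double-stranded RNA, and DDX21 works in the nucleolus. At the other end, DDX39B, DDX58 (the viral RNA sensor RIG-I), DDX60 (an antiviral factor) and DDX11 (a DNA helicase of sister chromatid cohesion) had 30 or fewer footprints in every library, and their values are correspondingly loose.

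The question of baseline translation was asked with the translation efficiency (TE), the ratio of footprints to mRNA-seq reads. For this comparison both were counted over the CDS, so that CDS length cancels and genes can be compared, and log2 TE was set relative to the bulk of genes. 5 of 48 testable members (10.4%) were translated more efficiently than the bulk and 1 (2.08%) less efficiently, by a quasi-likelihood test in edgeR whose p-values were adjusted over 10255 genes (Benjamini-Hochberg, threshold 0.05). Among all genes, 8.33% passed as higher and 13.7% as lower, so that the share of members above the bulk was near the background and the share below it was smaller. 13 members had an unadjusted p under 0.05, against 36.6% of all genes tested. Without the replicate number as a block in the fit, DDX6 alone passed, and with no filter on low counts 12 members did.

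The RNA-decay helicase DDX6, which represses translation and promotes decapping in P-bodies, stood highest. Its CDS held 764 footprints and 245 mRNA-seq reads in control replicate 1, and 1996 footprints and 462 mRNA-seq reads in replicate 2. Its TE was 5.82 times that of the bulk in replicate 1 and 7.68 times in replicate 2. The fitted log2 TE of 2.74 ± 0.31 (SE, n = 2 per assay; edgeR adjusted p = 0.000141) placed it at rank 23 of 10255 genes. Of the mRNA-seq reads of DDX6, 22.7% lay in the CDS, compared with 58.5% to 69.0% over whole control mRNA-seq libraries.

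The other cytoplasmic helicases were spread widely. DDX3X, which helps initiation on mRNAs with structured 5′ leaders, had a TE 2.17 and 2.00 times that of the bulk in replicates 1 and 2 (log2 1.06 ± 0.30, edgeR adjusted p = 0.0253). DHX36, which resolves G-quadruplexes, was at log2 0.26 ± 0.30, and DHX29, which assists scanning ribosomes on structured leaders, was at 0.10 ± 0.31. Neither passed the test. DHX34, a helicase of nonsense-mediated decay, had the lowest TE of the DHX genes at −0.46 ± 0.30 and did not pass either.

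All 5 helicases grouped under transcription and ribonucleoprotein assembly had a fitted TE above the bulk, with a median log2 TE of 0.91, and 2 of them passed. Of all genes tested, 50.3% lay above the bulk and 8.33% passed as higher. DDX20 (Gemin3), a component of the SMN complex that builds small nuclear ribonucleoproteins, was 2.70 and 1.45 times the bulk (log2 0.98 ± 0.32, edgeR adjusted p = 0.0415). DHX9 was 2.04 and 1.79 times the bulk (log2 0.94 ± 0.31, adjusted p = 0.0446). DDX1, a partner of the tRNA ligase, DDX5 and DDX17 had values of 0.91 ± 0.33, 0.78 ± 0.34 and 0.44 ± 0.30 without passing. Every member of this group lay above the bulk in both replicates, as did 3769 of the 10255 genes tested.

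Of the 16 helicases of ribosome biogenesis, 14 had a fitted log2 TE above 0, against 50.3% of all genes tested. Their median was 0.37, and 1 passed. That was DDX21, at 2.76 times the bulk in replicate 1 and 1.52 times in replicate 2 (log2 1.03 ± 0.33, edgeR adjusted p = 0.0404). DDX24, another nucleolar helicase, was at 0.56 ± 0.29, and DDX55 was the lowest of the group at −0.62 ± 0.33, with replicate values of −0.09 and −1.08. The 3 helicases of mRNA export that could be measured, DDX19A, DDX19B and DDX39A, were at 0.39, 0.63 and 0.75 and did not pass. DDX19A and DDX19B are near-identical copies, and reads they share were discarded by the authors' mapping rule, so their counts are uncertain.

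Splicing helicases fell on both sides of the bulk, 6 of 9 above it against 50.3% of all genes tested, with a median of 0.23. DDX41, which associates with the spliceosome, was the sole member to pass as lower in the main edgeR fit. With upper-quartile scaling DDX26B also passed as lower (edgeR adjusted p = 0.0469), and with DESeq2 DDX41 did not pass (adjusted p = 0.0509). It had 80 CDS footprints and 451 CDS mRNA-seq reads in control replicate 1, and 602 and 1615 in replicate 2, that is 0.333 and 0.664 times the TE of the bulk (log2 −1.07 ± 0.33, edgeR adjusted p = 0.0354). DHX8, which releases spliced mRNA from the spliceosome, lay at the other end with 0.83 ± 0.29 (adjusted p = 0.0536), and DHX15, which takes spent spliceosomes apart, was at 0.59 ± 0.31. Both missed the threshold.

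The mitochondrial ribosome assembly factors DDX28 and DHX30 had values near the bulk, 0.31 ± 0.31 and 0.16 ± 0.29. Several of the remaining members rested on few reads. DDX60 reached 1.35 ± 0.55, but on 4 mRNA-seq CDS reads in replicate 1, and DDX11 read 2.86 in one replicate and −1.23 in the other. DDX58 was at −0.93 ± 0.49 and DDX26B, since renamed INTS6L after the Integrator subunit it resembles, at −0.97 ± 0.35 (adjusted p = 0.0641). DHX32 and DHX40 were low in the fit (−0.36 ± 0.32 and −0.27 ± 0.32), yet each was above the bulk in replicate 1 and below it in replicate 2.

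**Figure D1:**
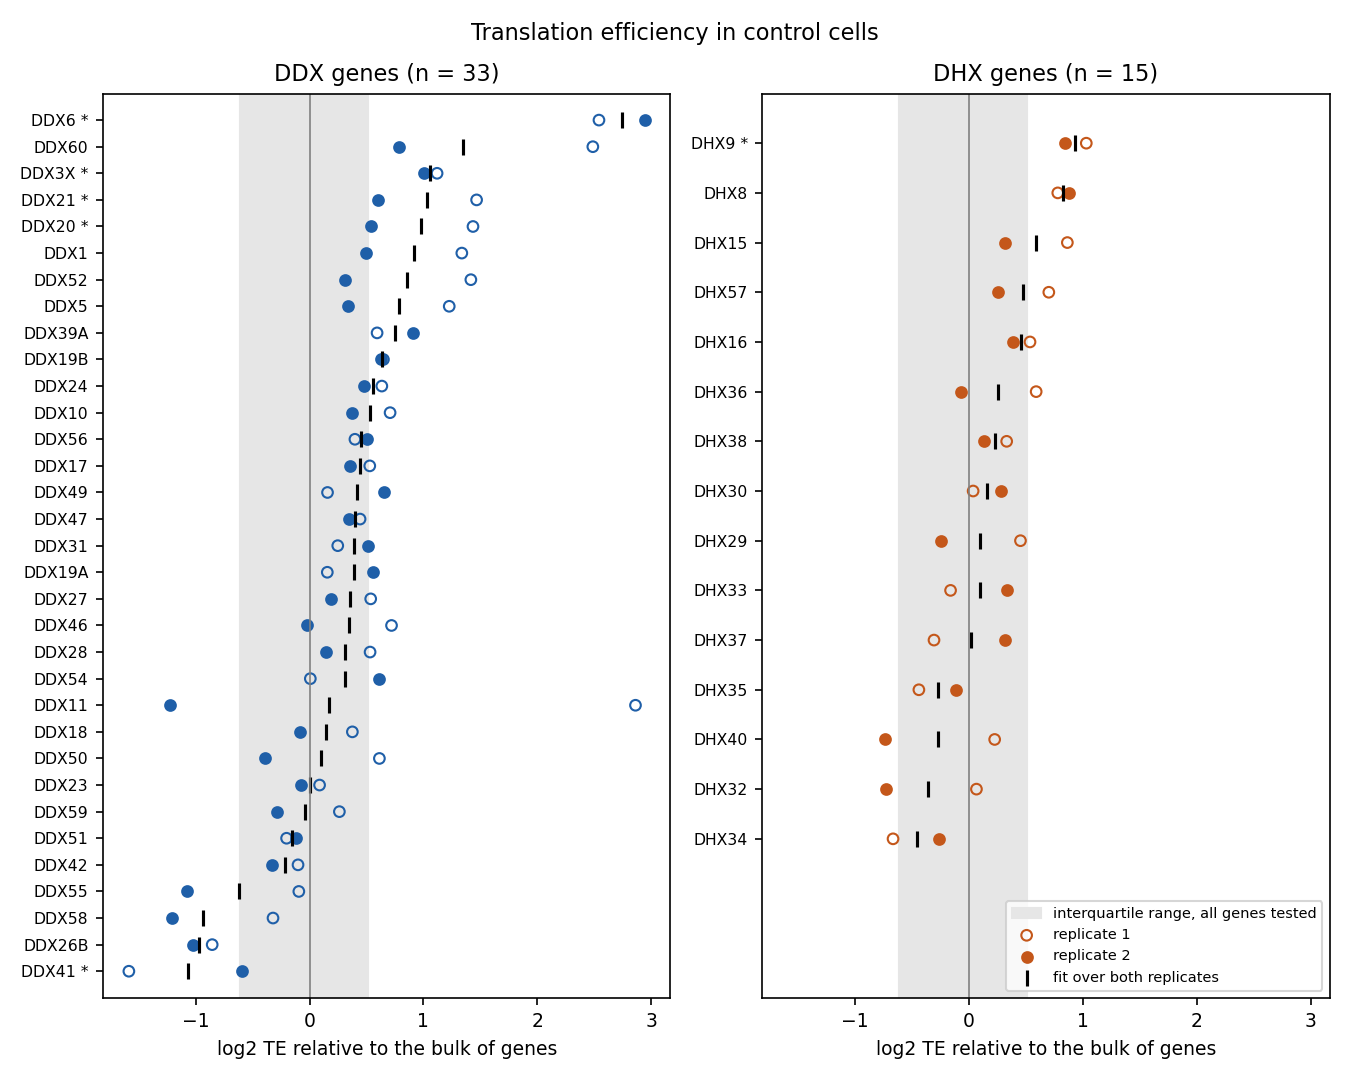
Log2 TE in control cells (x axis, relative to the bulk of genes) for the 33 DDX and 15 DHX genes that could be tested, with open circles for replicate 1, filled circles for replicate 2, black ticks for the edgeR fit, asterisks for an adjusted p below 0.05 and the grey band for the interquartile range of all genes. DDX6 lies far to the right in both replicates, and most members lie to the right of 0.

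Over all 48 members, 37 (77.1%) had a fitted log2 TE above 0, compared with 50.3% of all genes tested. In both replicates 28 members were above 0, and so were 3769 of the 10255 genes tested. The median was 0.35 for the members and 0.01 for all genes. It was 0.39 for the 33 DDX genes and 0.16 for the 15 DHX genes, a difference of 0.23. Computed in each replicate alone, the medians were 0.53 and 0.33 in replicate 1 and 0.35 and 0.26 in replicate 2, so that DDX lay above DHX by 0.20 and by 0.09. Single genes varied with an SD of 0.72 among DDX and 0.42 among DHX genes. The difference between the families was not tested. Replicates agreed only moderately, with a Pearson r of 0.467 across the 48 members, compared with 0.696 across all genes tested. Genes are not independent replicates and share their libraries.

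The change of RNA level after arsenite was measured on mRNA-seq reads over the whole transcript. 6 of 49 members (12.2%) rose and 0 fell by edgeR's test. Over 12600 genes, 4.08% passed as higher and 1.78% as lower. The increases were small, from 1.11-fold to 1.20-fold. 20 members had an unadjusted p under 0.05, against 18.4% of all genes tested. After adjustment 0 passed without the replicate block, whereas upper-quartile scaling left 1, DDX24. DESeq2 also called 0, but it gave an adjusted p for 13 of the 49 members and for 3 of the 6 called by edgeR, DDX24, DDX46 and DHX9. The values are relative to the bulk of mRNAs, and in bulk samples fewer cells and less RNA per cell cannot be told apart.

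DDX24, which acts in ribosome biogenesis, had the smallest adjusted p for RNA change. Its mRNA stood at 200 and 242 CPM (read counts scaled for library size by the trimmed mean of M values) in control and arsenite of replicate 1, and at 164 and 195 CPM in replicate 2. Arsenite was the higher within each replicate, while the ranges of the groups overlapped across replicates. The fitted log2 change was 0.26 ± 0.05 (SE, n = 2; edgeR adjusted p = 7.3e-05), and DDX24 was the one member that also passed with upper-quartile scaling, without the filter on low counts and on CDS reads. DDX60 (0.31 ± 0.32) and DDX19B (0.28 ± 0.12) had larger fitted changes and did not pass.

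The helicase DHX9 went from 575 to 642 CPM in replicate 1 and from 508 to 565 in replicate 2 (log2 0.16 ± 0.05, edgeR adjusted p = 0.0323). DDX20 went from 96.1 to 106 CPM and from 75.8 to 88.0 CPM (0.20 ± 0.06, adjusted p = 0.036). For both, each arsenite library exceeded the control of its own replicate. Of the splicing helicases, DHX16, which activates the spliceosome for its first step, went from 86.3 to 101 CPM and from 74.5 to 84.6 CPM (0.20 ± 0.06, adjusted p = 0.0382). DDX46, which acts with the U2 particle, went from 273 to 306 CPM and from 224 to 250 CPM (0.16 ± 0.05, adjusted p = 0.0385). The G-quadruplex helicase DHX36 went from 169 to 183 CPM and from 143 to 165 CPM (0.18 ± 0.05, adjusted p = 0.024).

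A small positive shift ran through the members as a whole. 42 of 49 (85.7%) had a fitted RNA change above 0, against 49.5% of all genes. In both replicates 34 were above 0 and 1, DDX41, was below 0. Of the 12600 genes tested, 3915 were above 0 in both replicates and 3689 were below 0 in both. The median was 0.09 for DDX genes and 0.07 for DHX genes, with 0.00 for all genes. The families had no steady order, with 0.05 for DDX and 0.11 for DHX genes in replicate 1 and 0.10 for each in replicate 2. All 49 were within 0.5 on the log2 scale, as were 97.6% of all genes tested. The lowest were DDX39B at −0.28 ± 0.21 and DDX41 at −0.14 ± 0.06, neither of which passed. DDX39B had only 21 to 76 mRNA-seq reads per library. The replicates shared little of the ranking of the members (r = 0.097 across 49 genes), as was also the case for all genes (r = 0.108).

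**Figure D2:**
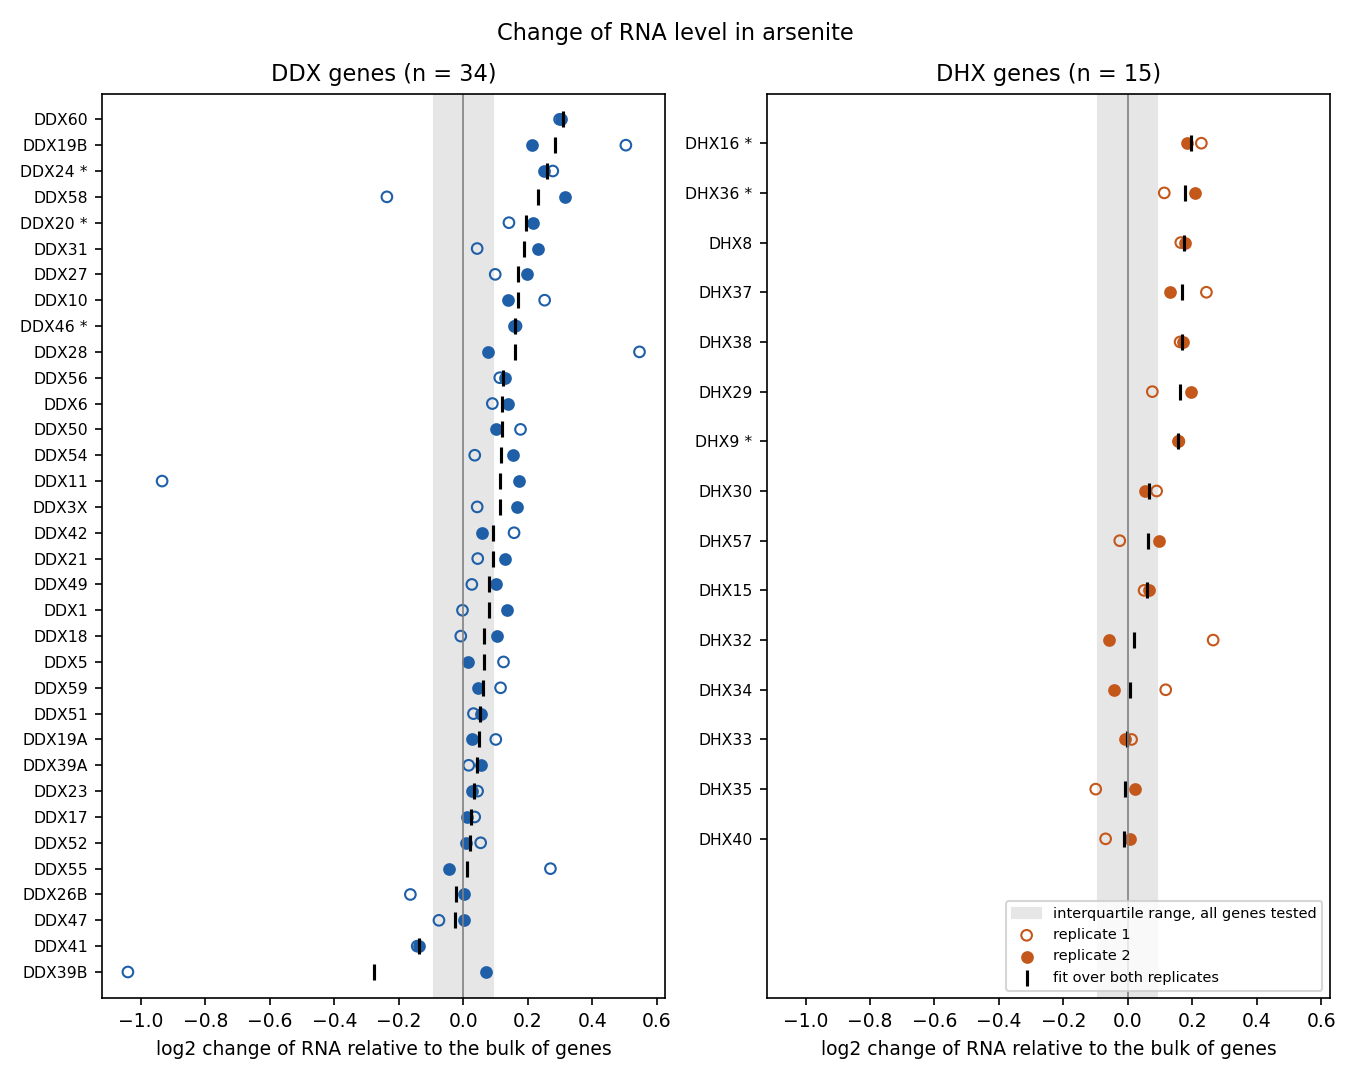
Log2 change of RNA level in arsenite against control (x axis, relative to the bulk of genes) for 34 DDX and 15 DHX genes, with symbols as in the plot of baseline TE. The asterisks mark the 6 members with an adjusted p below 0.05, all to the right of 0, and 42 of the 49 ticks lie to the right of 0.

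Ribosome occupancy, the footprints over the CDS relative to those of all genes, answers how much of the remaining translation went to each helicase. By edgeR 0 of 49 members passed, and 9 had an unadjusted p under 0.05, against 17.6% of all genes tested. DESeq2 also called 0, of 35 members for which it gave an adjusted p. Among 10291 genes 2.77% passed. Fitted values ran from −0.66 ± 0.27 for DDX59 to 0.51 ± 0.18 for DHX9 (adjusted p = 0.195 and 0.137). DHX9 footprints stood at 1328 CPM in control and 2153 in arsenite of replicate 1, and at 1153 and 1450 in replicate 2, so that both arsenite libraries lay above both controls. The median change was 0.10 for DDX and 0.18 for DHX genes in the fit. Taken in each replicate alone the DDX median was −0.02 and 0.02 and the DHX median 0.12 and 0.23, so that the DDX value had no stable sign. Because occupancy is scaled within each library, a loss of translation common to all mRNAs is not visible in it.

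The change of TE joins both assays in 1 model, with CDS footprints over transcript mRNA-seq reads. 1 of 49 members (2.04%) fell, DHX38, and 0 rose. Among 10273 genes 1.12% passed as lower. 9 members had an unadjusted p under 0.05, against 21.3% of all genes tested. DESeq2 called 0 of the 42 members for which it gave an adjusted p. DHX38 (the homolog of yeast Prp16) remodels the spliceosome before the second step of splicing.

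The footprints of DHX38 stood at 177 CPM in control and 113 in arsenite of replicate 1, and at 124 and 88.1 CPM in replicate 2. Its mRNA stood at 127 and 142 CPM in replicate 1 and at 89.1 and 100 CPM in replicate 2. Both arsenite ribo-seq libraries lay below both controls, while the mRNA values of the groups overlapped. TE changed by a log2 value of −0.72 ± 0.15 (0.609-fold, n = 2 per assay and condition; edgeR adjusted p = 0.0465), and the replicates alone gave −0.81 and −0.65. The call sits close to the threshold and was lost with upper-quartile scaling, with DESeq2, at a mean of at least 50 counts, with mRNA-seq reads over the CDS, and without the replicate block or with a block shared by both assays. On a Z-scale modelled on the study's methods, which sets each gene against genes of like expression, DHX38 was at −1.69 and −1.84 in replicates 1 and 2. Here each replicate was scaled by library totals, whereas the study scaled the second by spike-in reads.

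DDX3X lay just outside the threshold. Its footprints stood at 1077 CPM in control and 727 in arsenite of replicate 1, and at 684 and 514 CPM in replicate 2, whereas its mRNA stood at 767 and 791, and at 674 and 758 CPM. The log2 TE change was −0.59 ± 0.15, with −0.61 and −0.57 in the replicates (edgeR adjusted p = 0.0658). It passed where the filter on low counts was dropped. DDX23, the splicing helicase that displaces the U1 particle from the 5′ splice site, was at −0.50 ± 0.15 (adjusted p = 0.104). Neither is called here. In both genes the 2 replicates were negative, which a low fit over the same replicates makes likely. Of 10273 genes tested, 3258 were below 0 in both.

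Some further low values belonged to genes with fewer reads. DDX19B, which releases mRNA at the nuclear pore, had 36 footprints in control and 16 in arsenite of replicate 1, and 144 and 40 in replicate 2. Its log2 TE change was −0.81 ± 0.26 (edgeR adjusted p = 0.116), and its paralog DDX19A was at −0.18 ± 0.17. DDX59 had 64 and 19 footprints in replicate 1 and 224 and 65 in replicate 2, for −0.69 ± 0.20 (adjusted p = 0.0998). DDX60, with 30 footprints or fewer, was at −0.69 ± 0.47. Low values were also found on genes with many reads. DDX1, with 2224 and 3871 control footprints over the CDS, was at −0.36 ± 0.17 (edgeR adjusted p = 0.249). DDX21, with 2769 and 5895, was at −0.33 ± 0.15 (adjusted p = 0.229). Neither passed. Among DHX genes, the ribosome assembly factor DHX37 was at −0.32 ± 0.16 and DHX57 at −0.27 ± 0.15. The last pair, like DDX19B, DDX59 and DDX60, did not pass.

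At the upper end DHX34 was at 0.44 ± 0.16 (edgeR adjusted p = 0.162), DHX40 at 0.38 ± 0.15 (adjusted p = 0.194) and DHX9 at 0.36 ± 0.16 (adjusted p = 0.235). Of the DDX genes, DDX41 was at 0.37 ± 0.22 and the ribosome biogenesis helicase DDX47 at 0.33 ± 0.15. None passed. All 5 were above 0 in both replicates, which is favoured by their choice as the highest fits over the same replicates. Of 10273 genes tested, 3127 were above 0 in both. The single highest value, 0.63 ± 0.65 for DDX39B, rested on 5 to 13 footprints per library. DDX6, the member with the highest baseline TE, was at 0.25 ± 0.15 (adjusted p = 0.364).

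By role, the 16 ribosome biogenesis helicases lay close together, all within 0.5 of 0 with a median TE change of 0.01. The 5 helicases of transcription and ribonucleoprotein assembly were also all within 0.5, with a median of −0.07. Splicing helicases had a median of 0.06 over 10 genes and the cytoplasmic group one of −0.04 over 5 genes. Both groups had values from below −0.5 to above 0.4. Of the splicing values only that of DDX39B, 0.63, lay above 0.4, on 5 to 13 footprints per library, and DDX41 was next at 0.37. Of all members, 43 of 49 (87.8%) were within 0.5 of 0, against 77.4% of all genes tested, which include many genes with fewer reads.

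**Figure D3:**
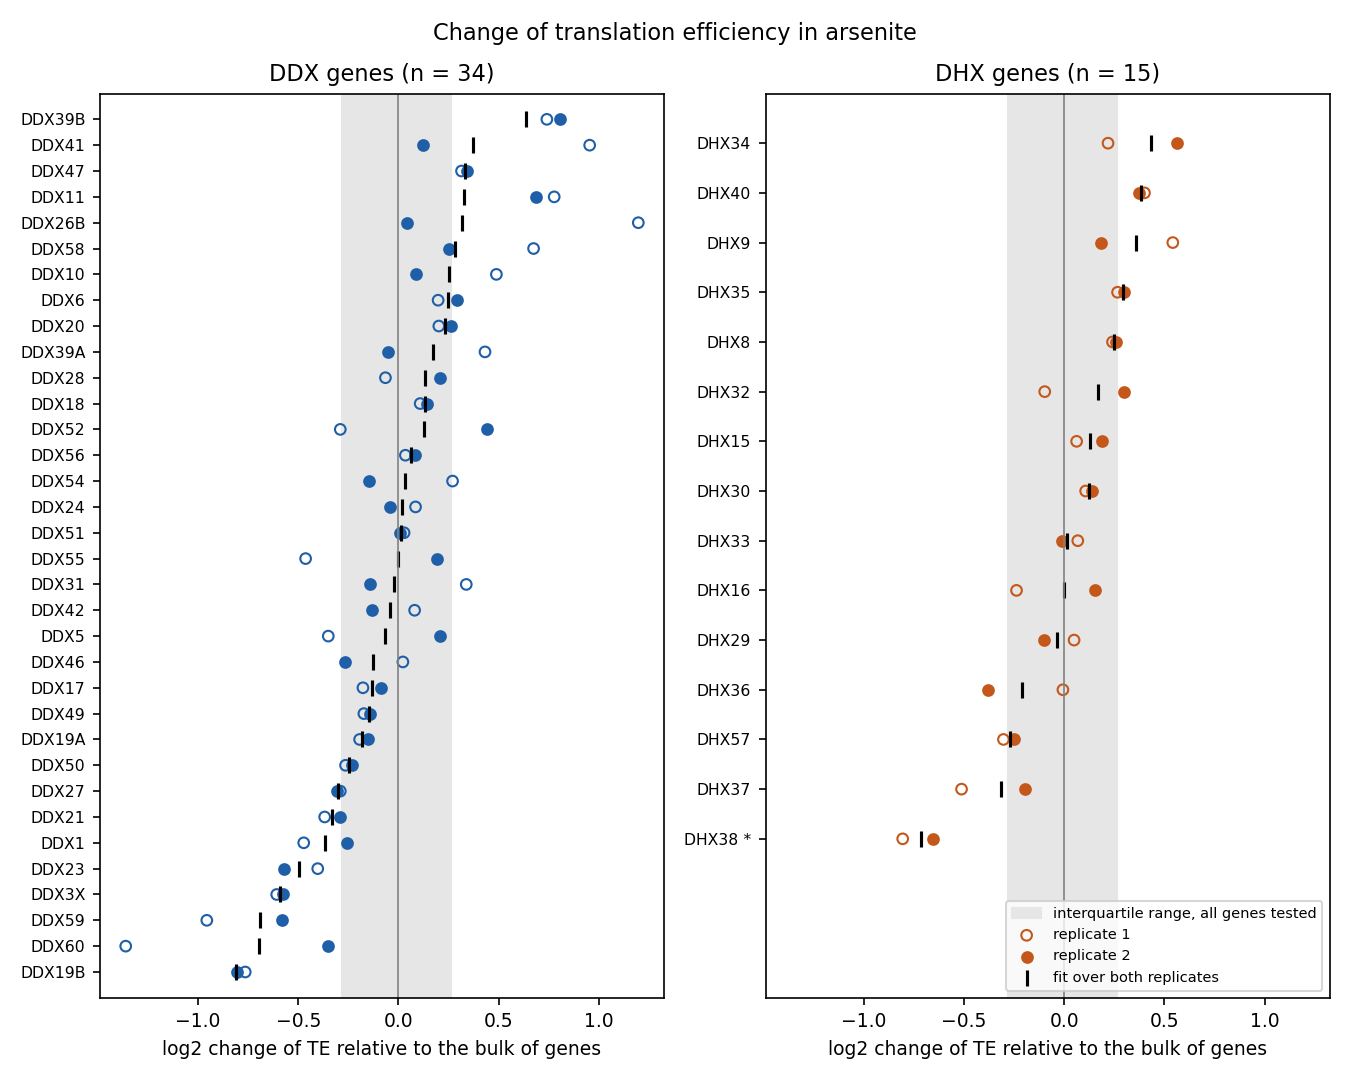
Log2 change of TE in arsenite against control (x axis, relative to the bulk of genes) for 34 DDX and 15 DHX genes, with symbols as in the plot of baseline TE. DHX38, marked by the asterisk, and DDX3X lie left of the grey band in both replicates. Other members do too, among them DDX19B, DDX23 and DDX59. Of the 49 ticks, 43 lie within 0.5 of 0.

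DDX and DHX genes overlapped in their TE change, and the difference between the families was not tested. The median was 0.00 for the 34 DDX genes, 0.12 for the 15 DHX genes and −0.01 for all genes. DDX lay below DHX by 0.12 in the fit, by 0.04 in replicate 1 and by 0.20 in replicate 2. The interquartile range of DDX genes ran from −0.23 to 0.22 and that of DHX genes from −0.12 to 0.27. The replicates agreed better on the members (r = 0.648 across 49 genes) than on all genes (r = 0.306), as a description across genes that differ in read number.

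Footprints in 5′ leaders, the regions ahead of the CDS where upstream open reading frames lie, were rare on helicase mRNAs. On the 49 members together they made up 0.099% of footprints in control and 0.125% in arsenite of replicate 1, and 0.370% and 0.907% in replicate 2. Over all genes tested for TE the shares were 0.379% and 0.476%, and 0.774% and 1.49%. The members thus lay below the whole in each of the 4 ribo-seq libraries. Within each replicate the share was higher in arsenite for the members and for all genes, and the difference was not tested.

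Enough leader footprints for a test of leader against CDS (a mean of at least 10) were present on 5 members, DDX5, DDX6, DHX9, DHX30 and DHX34. By edgeR 0 of the 5 passed, and 0 had an unadjusted p under 0.05, against 29.1% of all genes tested. DESeq2 called 0 of the 4 members for which it gave an adjusted p. Of 647 genes 0.155% passed. In replicate 2 the leader share of DHX9 was 0.426% (95% Wilson interval 0.310 to 0.584) in control and 1.33% (1.04 to 1.70) in arsenite, but in replicate 1 it was 0.260% (0.119 to 0.565) and 0.0986% (0.027 to 0.359). DDX5 had 110 leader footprints of 10790 in control and 111 of 5372 in arsenite of replicate 2. In replicate 1 it had 2 of 3538 and 0 of 1637, and the latter allows a share of up to 0.183% (3 counts) or, by the Wilson interval, 0.234%. At this depth a lower share in arsenite was not detectable for DDX5. DHX34 had the largest share in replicate 2, 5.41% (3.74 to 7.76) in control and 8.36% (5.77 to 11.97) in arsenite, on 27 and 26 leader footprints. These intervals cover counting error only, and for DHX34 they overlapped.

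**Figure D4:**
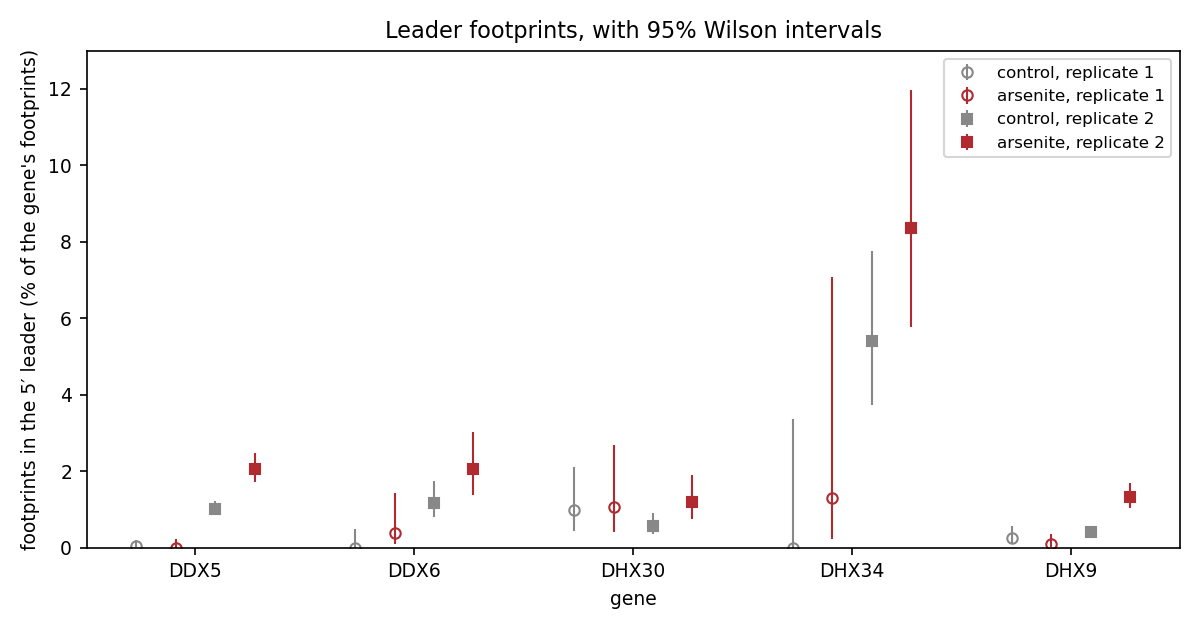
Share of a gene's footprints that lay in the 5′ leader (y axis, %) for the 5 members that could be tested, in control (grey) and arsenite (red), with circles for replicate 1, squares for replicate 2 and bars for 95% Wilson intervals. In replicate 2 each gene's share was higher in arsenite, with intervals apart for DDX5 and DHX9 and overlapping for DDX6, DHX30 and DHX34. Over all genes tested for TE the share in replicate 2 also rose, from 0.774% to 1.49%. In replicate 1 the intervals of control and arsenite overlapped for every gene.

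Relatives that carry other symbols were set beside the members. EIF4A1, the main eIF4A of growing cells, had 0, 0, 1 and 0 CDS footprints in the 4 ribo-seq libraries and could not be measured. The annotation also lists the read-through transcript SENP3-EIF4A1, and reads that fit more than 1 gene were discarded by the authors. DDX39B was in the same position, with 5 to 13 CDS footprints, no mRNA-seq CDS read in control, and the read-through transcript ATP6V1G2-DDX39B in the annotation. Whether the shared annotation accounts for these low counts was not tested, and no level is read from them here. DDX39B still enters the counts and medians given above for RNA, occupancy and TE change.

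Of 14 listed relatives, 10 could be tested for baseline TE, where 8.33% of all genes passed as higher and 13.7% as lower. Of the 10 relatives, 4 passed as higher than the bulk and 1 as lower. Those that passed as higher were UPF1 (1.28 ± 0.29, edgeR adjusted p = 0.00966), the helicase of nonsense-mediated decay, EIF4A3 (1.00 ± 0.30, adjusted p = 0.0312) of the exon junction complex, SNRNP200 (0.92 ± 0.31, adjusted p = 0.0478) of the spliceosome and SKIV2L2 (0.91 ± 0.30, adjusted p = 0.0445) of the nuclear exosome. EIF4A2, a second eIF4A, passed as lower (−1.27 ± 0.30, adjusted p = 0.0104). After arsenite the RNA of SNRNP200 rose by a log2 value of 0.21 ± 0.05 (adjusted p = 0.000809) and that of SKIV2L2 by 0.22 ± 0.05 (adjusted p = 0.00287), sizes like those of the called members. They were 2 of 12 relatives tested for RNA change, where 4.08% of all genes passed as higher. The 12 include EIF4A1, although no level is read from it here. The TE changes of EIF4A2 and EIF4A3 were −0.44 ± 0.23 and 0.12 ± 0.15 and did not pass.

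The 7 listed genes linked to eIF4A or the cap-binding complex had fitted baseline TE values above the bulk in 4 cases, against 50.3% of all genes tested. Of the 4, 2 passed, PDCD4 (1.32 ± 0.32, edgeR adjusted p = 0.0118), an inhibitor of eIF4A, and the cap-binding factor EIF4E (1.03 ± 0.31, adjusted p = 0.0309). EIF4G2 passed as lower (−1.24 ± 0.33, adjusted p = 0.0177). Of all genes tested, 8.33% passed as higher and 13.7% as lower. The RNA of the scaffold EIF4G1 rose by 0.25 ± 0.05 (adjusted p = 2.56e-05), as 1 of 7 tested, where 4.08% of all genes passed as higher. In TE change the lowest were PDCD4 at −0.64 ± 0.15 (adjusted p = 0.0546) and EIF4H, a cofactor of eIF4A, at −0.53 ± 0.15 (adjusted p = 0.0876), and neither passed.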

How the data were processed

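Ribo-seq and mRNA-seq libraries of control and arsenite-treated HEK293T cells were compared. The authors deposited raw read counts per RefSeq transcript, in total and over leader, CDS and 3′ UTR. They trimmed adapters with cutadapt, mapped with Bowtie 1.0.0 and, per the methods, kept no read that fitted several genes. This lowers the counts of paralogs and of genes within read-through transcripts. For each gene the coding transcript with the most CDS footprints over both control libraries was used. 18 members had 2 or more, and 46 of 49 kept theirs when chosen by mRNA-seq reads.

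Counts were fitted with edgeR 4.0.16 (quasi-likelihood test, TMM scaling, Benjamini-Hochberg adjustment over all genes tested, threshold 0.05, mean of at least 10 counts). CPM values use the same scaling, and replicate values a prior count of 0.5. The replicate number entered as a block, within each assay in the TE model. The study's methods give each replicate its own adapter and sequencing, and same-numbered libraries deviated together (correlation 0.710 for mRNA-seq, 0.689 for ribo-seq). The replicates are described as independent biological ones. Scripts were tested on simulated data.

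Named genes are members past a threshold, the 3 highest and lowest DDX and DHX genes in baseline TE and TE change, those with the most reads, and at least 2 of each role. Members with no value in the text are in the plots. DDX23 and DDX55 were named after their values were seen. The members and lists were chosen with earlier results of these data known. DESeq2 1.42.0, upper-quartile scaling, filters, transcript choice, read region, the replicate block and the Z-score of the methods were alternatives. No coordinates are given because the counts are per transcript.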

Additional observations from a re-analysis of the deposited data

How the results depend on the processing

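With 2 replicates per condition, leaving 1 out leaves no test, and a value then rests on 1 library per group. Counts of members called were the least stable. For RNA change the main count of 6 became 0 with no replicate block, 0 with DESeq2 (which gave 36 of 49 members, 3 of the 6 among them, no adjusted p), 1 with upper-quartile scaling, 2 with no filter on low counts and 1 on mRNA-seq CDS reads. For TE change the main count of 1 became 0 with no replicate block, with a replicate block shared by both assays, with DESeq2, with upper-quartile scaling, at a mean of at least 50 counts, on CDS reads and on the Z-score in either replicate, and 2 (DDX3X and DHX38) with no filter. For baseline TE the main count of 6 became 1 (DDX6) with no replicate block, 12 with no filter and 2 (DDX6 and DDX41) at a mean of at least 50. It stayed at 6 with DESeq2, but with DDX1 in place of DDX41, and was 7 with upper-quartile scaling, which added DDX26B. Counts of 0 for occupancy and for leader shift stayed 0 under every alternative run, though upper-quartile scaling was not run for the leader test, which uses library totals. The median baseline log2 TE of DHX genes, 0.16 in the fit, was 0.26 to 0.33 with a replicate left out, 0.090 with upper-quartile scaling, 0.032 at a mean of at least 50 and 0.30 with a pseudocount of 1, and that of DDX genes was 0.35 to 0.53 with a replicate left out. The median TE change of DDX genes was −0.047 to 0.025 with a replicate left out. The median RNA change of DDX genes was 0.050 to 0.10 with a replicate left out, and that of DHX genes 0.10 to 0.11, with 0.052 under upper-quartile scaling and 0.10 with a pseudocount of 1. Baseline log2 TE changed sign for DHX32, which was −0.73 without replicate 1 and 0.067 without replicate 2, and for DHX40, at −0.74 and 0.23. The causes were not tested. The values of named genes were also counted under all alternatives, leaving out those with no adjusted p in DESeq2. Of these, 221 kept direction and side of the threshold or, with no test, moved by less than the replicate spread. Another 39 no longer passed, 3 newly passed and 6 untested ones moved by more than the replicate spread. The 221 include values that did not pass in the main fit and so had no call to lose. The 39 all come from values called in the main fit, so the tally is no measure of how stable the calls were.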

Other observations

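Helicase mRNAs took a similar share of each assay before and after arsenite. The 49 members held 0.942% of mRNA-seq reads in control and 0.983% in arsenite of replicate 1, and 0.902% and 0.953% in replicate 2. Their share of CDS footprints was 1.39% and 1.41% in replicate 1, and 1.16% and 1.26% in replicate 2. The DHX genes accounted for a part of it, from 0.364% to 0.459% in replicate 1 and from 0.342% to 0.409% in replicate 2. The DDX share of footprints went from 1.02% to 0.955% in replicate 1 and from 0.818% to 0.852% in replicate 2, so that its direction differed between the replicates. These shares are dominated by the members with the most reads and were not tested.

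Footprints beyond the stop codon were rarer still. On the members they numbered 3 of 26260 in control and 3 of 14402 in arsenite of replicate 1, and 52 of 83833 and 85 of 37936 in replicate 2. In the latter replicate this was 0.0620% (95% Wilson interval 0.0473 to 0.0813) in control and 0.224% (0.181 to 0.277) in arsenite, against 0.186% and 0.656% over all genes tested for TE. DDX17, named after its values were seen, had 5 of these reads in control and 25 in arsenite of replicate 2, and 1 and 0 in replicate 1.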
